A study of Saccharomyces cerevisiae with 48 samples.

Results

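General stress genes of the kind controlled by the transcription factors Msn2 and Msn4 were followed through 48 SLAM-seq libraries of budding yeast. They are 10 of the 6465 genes in the count tables: HSP12 (YFL014W), DDR2 (YOL052C-A), RTC3 (YHR087W), HSP26 (YBR072W), CTT1 (YGR088W), SPI1 (YER150W), PGM2 (YMR105C), TPS2 (YDR074W), TSL1 (YML100W) and GPH1 (YPR160W). They were selected on their T>C counts and total counts over all 16 groups of these same libraries, so the values of these genes are given below as a description and no test is offered for them. For this reason a count of these genes that were called changed is printed beside the same percentage over all genes, and nothing is read from it.

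The cells carried Bdf1 and Bdf2, the yeast BET proteins, fused to an auxin-inducible degron (mAID), together with the plant F-box protein OsTIR1 under the GPD1 promoter. Cultures received 1 mM IAA, the auxin that triggers destruction of the tagged proteins, or its solvent DMSO for 3 h, and were then labelled with 5 mM 4-thiouracil (4tU) for 6 min per the labels. Strain RDY73 had the tagged proteins alone. By the study's strain list, each remaining strain had an additional BDF1 copy integrated with a TRP1 marker and driven by the promoter of BDF1, which was unmodified in RDY234, mutated in the first bromodomain in RDY235, in the second in RDY236 and in both in RDY237, without its B/BID segment in RDY247, and carrying ET domain mutations at 2 residues in RDY249 and at 4 in RDY251. Each of the 8 strains gave 3 DMSO and 3 IAA libraries, lettered A to C, from separate cultures. The library numbers fell into 2 series, an earlier one with RDY234, RDY235, RDY236, RDY237 and RDY251 and a later one with RDY73, RDY247 and RDY249, and strains were compared within a series only. RDY234 was the reference strain of the earlier series and RDY73 that of the later one.

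Msn2 and Msn4 are zinc finger activators that enter the nucleus when protein kinase A activity drops, as upon glucose loss, heat, oxidative or osmotic stress, and that bind the stress response element, whose core is AGGGG. Their targets protect membranes and proteins, remove peroxide, and make or mobilise the storage carbohydrates trehalose and glycogen. SLAM-seq separates RNA made during the labelling, which carries T>C conversions, from the total pool. A T>C read here has at least 2 T>C conversions. All counts below were divided by size factors from S. pombe cells added before extraction, so that a loss of RNA from every gene at once remains visible, although less RNA per cell and fewer S. cerevisiae cells per added S. pombe cell cannot be told apart.

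The promoters were examined first, since the AGGGG core is the sequence that the name of the group refers to. In the 500 bases before the start codon, searched on both strands, AGGGG occurred at least once in all 10 genes, at least 2 times in all 10 and at least 3 times in 9, with GPH1 the exception. Over 5993 protein-coding genes these shares were 34.1%, 8.13% and 1.84%. HSP12, PGM2 and TSL1 held 5 matches each, DDR2 and TPS2 held 4, and GPH1 held 2. The TATAAA sequence was present in 7 of the 10 promoters, against 60.5% of all. Because the list was assembled as Msn2/4-type genes, a high count of AGGGG describes the list and is not a finding about it.

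**Figure D1:**
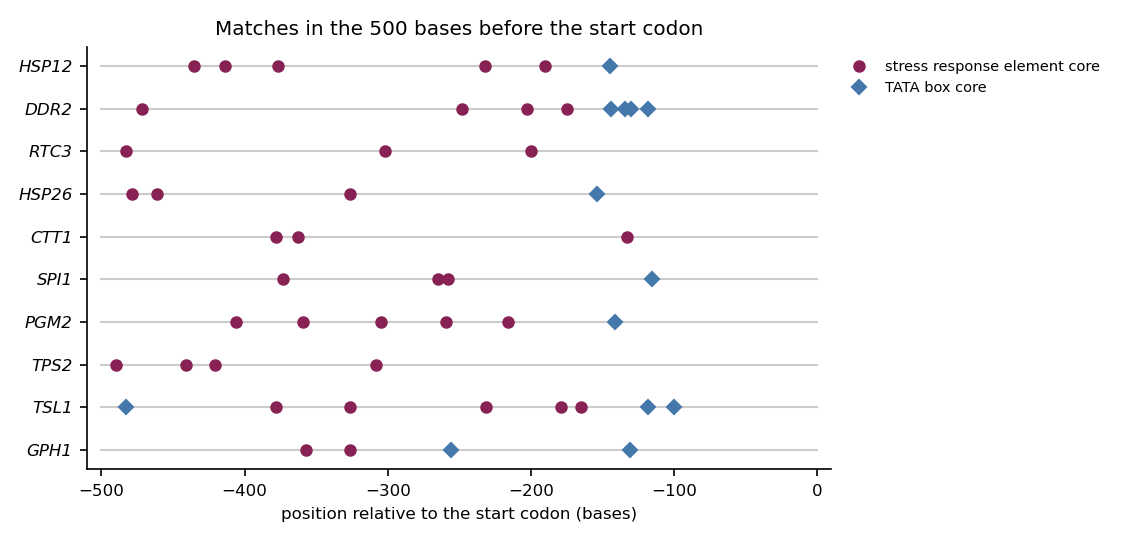
Positions of AGGGG on either strand (circles) and of TATAAA (diamonds) in the 500 bases before the start codon of the 10 genes, in bases relative to the start codon. All AGGGG matches lie at 133 or more bases from the start codon, and GPH1 has 2 where the other genes have 3 to 5.

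The sequences below are shown because HSP12 and DDR2 were the genes called raised on total reads in all 8 strains and TSL1 holds 5 elements within 1 window. Each is a 300-base window of the R64 genome, written 5′ to 3′ along the strand of the gene, with AGGGG or its reverse complement CCCCT in capitals. The HSP12 window lies at VI:106821-107120 on the plus strand, from 435 to 136 bases before the start codon. The DDR2 window lies at XV:231756-232055 on the minus strand, from 300 bases before the start codon up to it. The TSL1 window lies at XIII:70246-70545 on the plus strand, from 378 to 79 bases before the start codon.
HSP12: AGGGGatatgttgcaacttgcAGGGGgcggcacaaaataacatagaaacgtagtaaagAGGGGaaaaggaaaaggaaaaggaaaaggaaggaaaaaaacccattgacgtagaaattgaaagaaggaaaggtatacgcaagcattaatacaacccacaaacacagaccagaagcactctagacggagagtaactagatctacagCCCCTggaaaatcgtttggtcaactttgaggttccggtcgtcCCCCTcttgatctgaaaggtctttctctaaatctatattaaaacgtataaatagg
DDR2: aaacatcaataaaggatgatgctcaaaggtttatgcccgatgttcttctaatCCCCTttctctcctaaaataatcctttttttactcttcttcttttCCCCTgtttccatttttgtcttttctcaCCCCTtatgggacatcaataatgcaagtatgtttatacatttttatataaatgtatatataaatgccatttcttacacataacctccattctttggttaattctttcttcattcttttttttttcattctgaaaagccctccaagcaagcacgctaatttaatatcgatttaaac
TSL1: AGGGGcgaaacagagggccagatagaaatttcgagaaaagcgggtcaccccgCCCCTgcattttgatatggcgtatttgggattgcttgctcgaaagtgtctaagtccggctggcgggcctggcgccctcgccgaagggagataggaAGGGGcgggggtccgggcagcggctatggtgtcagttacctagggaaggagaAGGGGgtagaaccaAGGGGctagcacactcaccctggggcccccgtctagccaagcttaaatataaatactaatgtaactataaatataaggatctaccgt
HSP12 has 3 elements on the sense strand in the distal part of its window and 2 on the other strand nearer the gene, DDR2 has its 3 elements in this window on the other strand, and 4 of the 5 TSL1 elements are on the sense strand.

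The libraries held 3301563 to 10699839 S. cerevisiae reads and 42821 to 1163027 T>C reads each. T>C reads averaged 7.36% of reads in RDY73 DMSO and 0.731% in RDY73 IAA, the lowest of the 16 groups. One library stood apart within its group, RDY236 DMSO replicate B, and values that rest on it are given with and without it. TRP1, the marker of the further copy, averaged 20.3 ± 8.14 (SD, n = 3) normalized total reads under DMSO in RDY73, and its DMSO mean was at least 109 in each other strain, as the labels imply. The alpha-cell markers summed to at least 11770 normalized total reads in every library and the a-cell markers to at most 377. The summed a-cell level was 67.4 to 80.7 in RDY73 DMSO and 319.6 to 377 in RDY73 IAA, with MFA1 at means of 33.5 and 146, MFA2 at 18.8 and 148 and AGA2 at 2.60 and 29.2, while BAR1 stood at 9.17 and 6.30 and STE2 at 7.83 and 14.7. It was 68.3 to 74.3 in RDY234 DMSO, 218.6 to 249.3 in RDY251 DMSO and 290.2 to 365.4 in RDY251 IAA, and at most 120 in any library of the other groups. The a-cell sum was thus higher in RDY73 IAA than in RDY73 DMSO and in RDY251 than in RDY234, as total reads of HSP12 were, and its part in the results for these strains was not tested.

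HSP12 (counted at VI:107256-107835) encodes a small hydrophilic protein that protects the plasma membrane. In RDY73, its normalized total reads were 12870, 12572 and 15644 under DMSO and 61730, 62799 and 63125 under IAA, so the groups did not overlap and the lowest IAA library stood above the highest DMSO library. This was a log2 change of 2.19 (SE 0.20), or 4.57-fold, in a strain in which the median over 5907 genes changed by -2.25. HSP12 took 0.134% ± 0.0101 (SD, n = 3) of all library reads under DMSO and 1.70% ± 0.1001 under IAA.

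The T>C reads of HSP12 went the other way in the same 6 libraries. They were 170.6, 130.4 and 157.0 normalized reads under DMSO and 75.1, 87.7 and 69.2 under IAA, again without overlap. The log2 change was -0.99 (SE 0.26), a 1.98-fold difference, while the median over the 5118 genes tested on T>C counts changed by -5.57. Relative to that median HSP12 was 24.0-fold higher under IAA. The T>C share of HSP12 reads was 1.13% (461 of 40917 reads, 95% Wilson interval 1.03% to 1.23%) under DMSO and 0.121% (462 of 380292, 0.111% to 0.133%) under IAA, so nearly the same number of T>C reads was counted among a much larger number of reads. Such intervals pool the libraries of a group and take in counting error alone, not the spread between libraries. PCR copies of 1 molecule could not be told apart, so even the counting error may be understated.

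**Figure D2:**
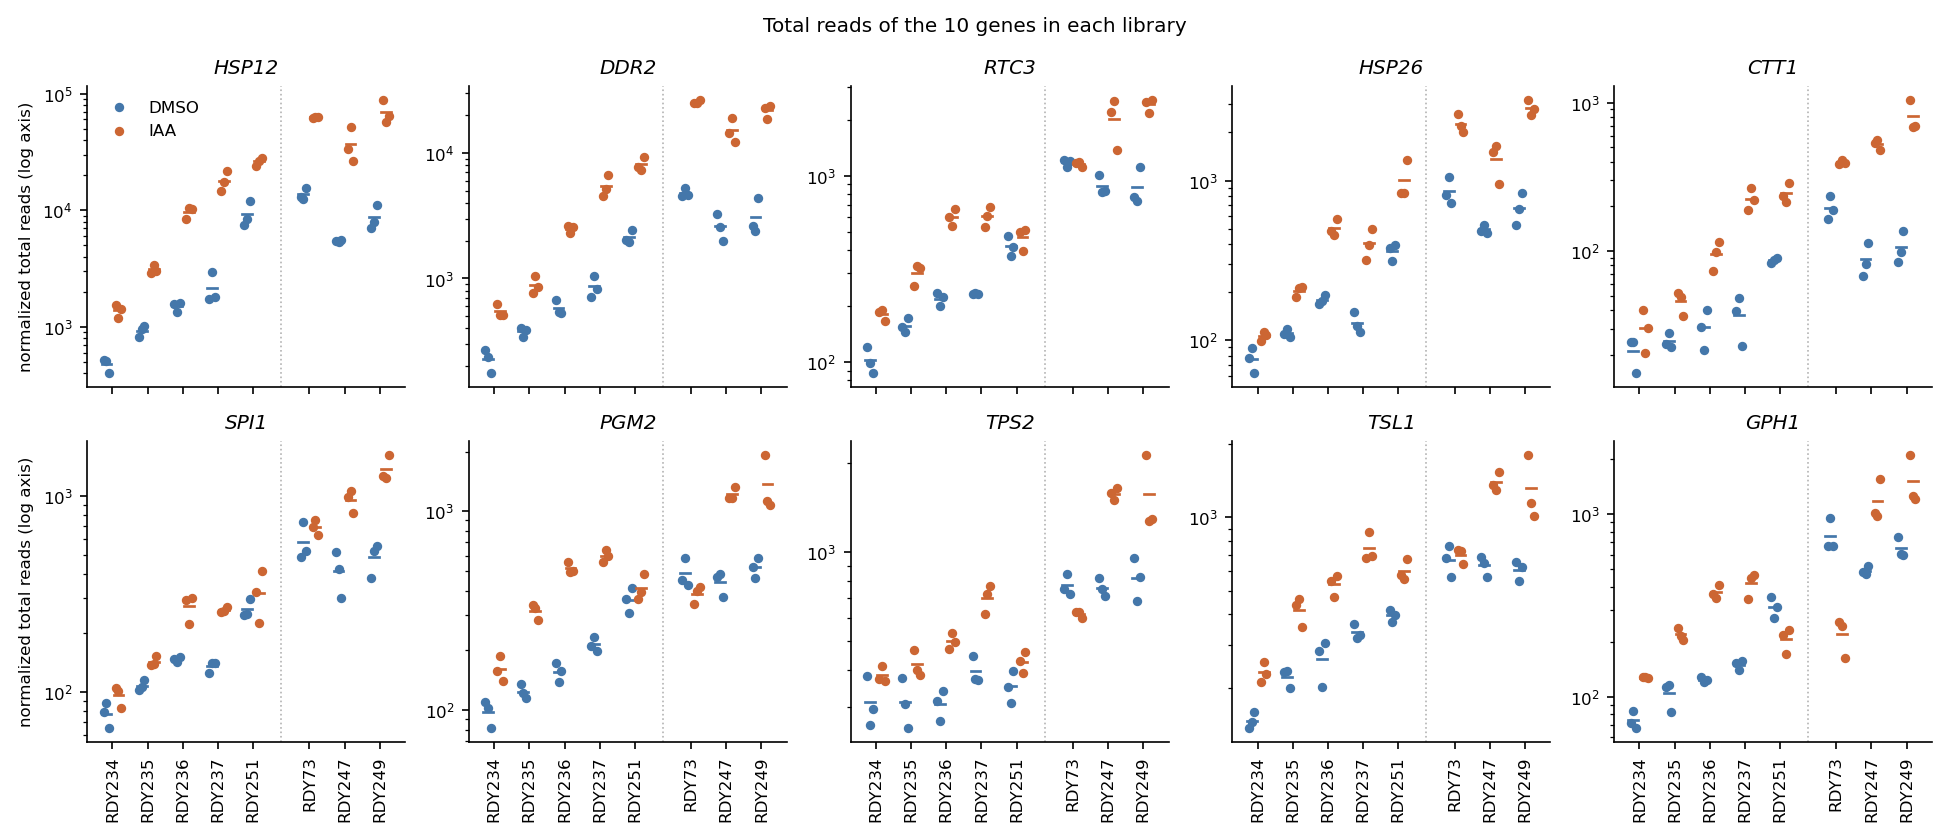
Normalized total reads (log axis) of the 10 genes in each of the 48 libraries, by strain, with DMSO in blue and IAA in orange. Points are libraries, short lines are means of 3, and the dotted line parts the earlier series (left) from the later one (right). HSP12 and DDR2 are higher in every IAA library than in every DMSO library of the same strain.

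DDR2 (counted at XV:231320-231755), a small protein induced by DNA damage and many other stresses, behaved like HSP12 in RDY73. Its normalized total reads were 4542, 5266 and 4614 under DMSO and 24772, 24814 and 26483 under IAA, a log2 change of 2.40 (SE 0.19). Its T>C reads were 333.2, 287.1 and 251.0 under DMSO and 39.0, 38.4 and 41.4 under IAA, a log2 change of -2.87 (SE 0.28). The T>C share of its reads was 6.11% (5.73% to 6.51%) and 0.156% (0.138% to 0.177%).

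The other 8 genes in RDY73 separated into those whose total reads were higher under IAA and those whose total reads were close to or below the DMSO level. HSP26, a small heat shock protein that binds unfolding proteins, had 815.4, 1056 and 718.7 normalized total reads under DMSO and 2614, 2189 and 2015 under IAA (log2 1.40, SE 0.17). CTT1, the cytosolic catalase that breaks down hydrogen peroxide, had 164, 236 and 189 under DMSO and 386, 408 and 394 under IAA (log2 1.01, SE 0.18). Neither gene's groups overlapped. GPH1, the glycogen phosphorylase, had 671, 950 and 667 under DMSO and 256, 244 and 162 under IAA (log2 -1.79, SE 0.18). RTC3, SPI1, PGM2, TPS2 and TSL1 had log2 changes between -0.34 and 0.25, all above the median of all genes. Of the 10 genes, 4 were called raised on total reads (2.52% of 5907 genes were) and 1 was called lowered (84.8% of genes were), a call being a change of 2-fold or more with an adjusted p under 0.05. Without DMSO replicate A or C or IAA replicate B, 3 were called raised.

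On T>C counts, 8 of the 10 genes reached the mean of 10 reads over the 48 libraries that the test required, and CTT1 and GPH1 did not. In RDY73, 7 of the 8 were called lowered under IAA, as were 99.9% of 5118 genes, and HSP12 missed the 2-fold limit. Without DMSO replicate B or IAA replicate B all 8 were called lowered. The log2 changes ran from -4.82 (SE 0.44) for SPI1, a cell wall protein, through -4.15 (SE 0.32) for RTC3, -4.13 (SE 0.29) for TPS2, -4.07 (SE 0.37) for TSL1 and -3.76 (SE 0.51) for PGM2 to -2.85 (SE 0.41) for HSP26. Each of the 8 exceeded the median of -5.57. CTT1 had 37 T>C reads under DMSO and 12 under IAA, a ratio of 0.160 (exact 95% Poisson interval 0.0762 to 0.315), and GPH1 had 29 and 4, a ratio of 0.0682 (0.0174 to 0.194). Both intervals take in counting error alone and not the spread between libraries. When T>C counts were scaled by TMM over the S. cerevisiae genes themselves, with no spike-in, the direction turned for all 7 called genes in RDY73 and for HSP12 (from -0.99 to 4.37), so a fall on this scale is a fall relative to the added S. pombe cells.

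**Figure D3:**
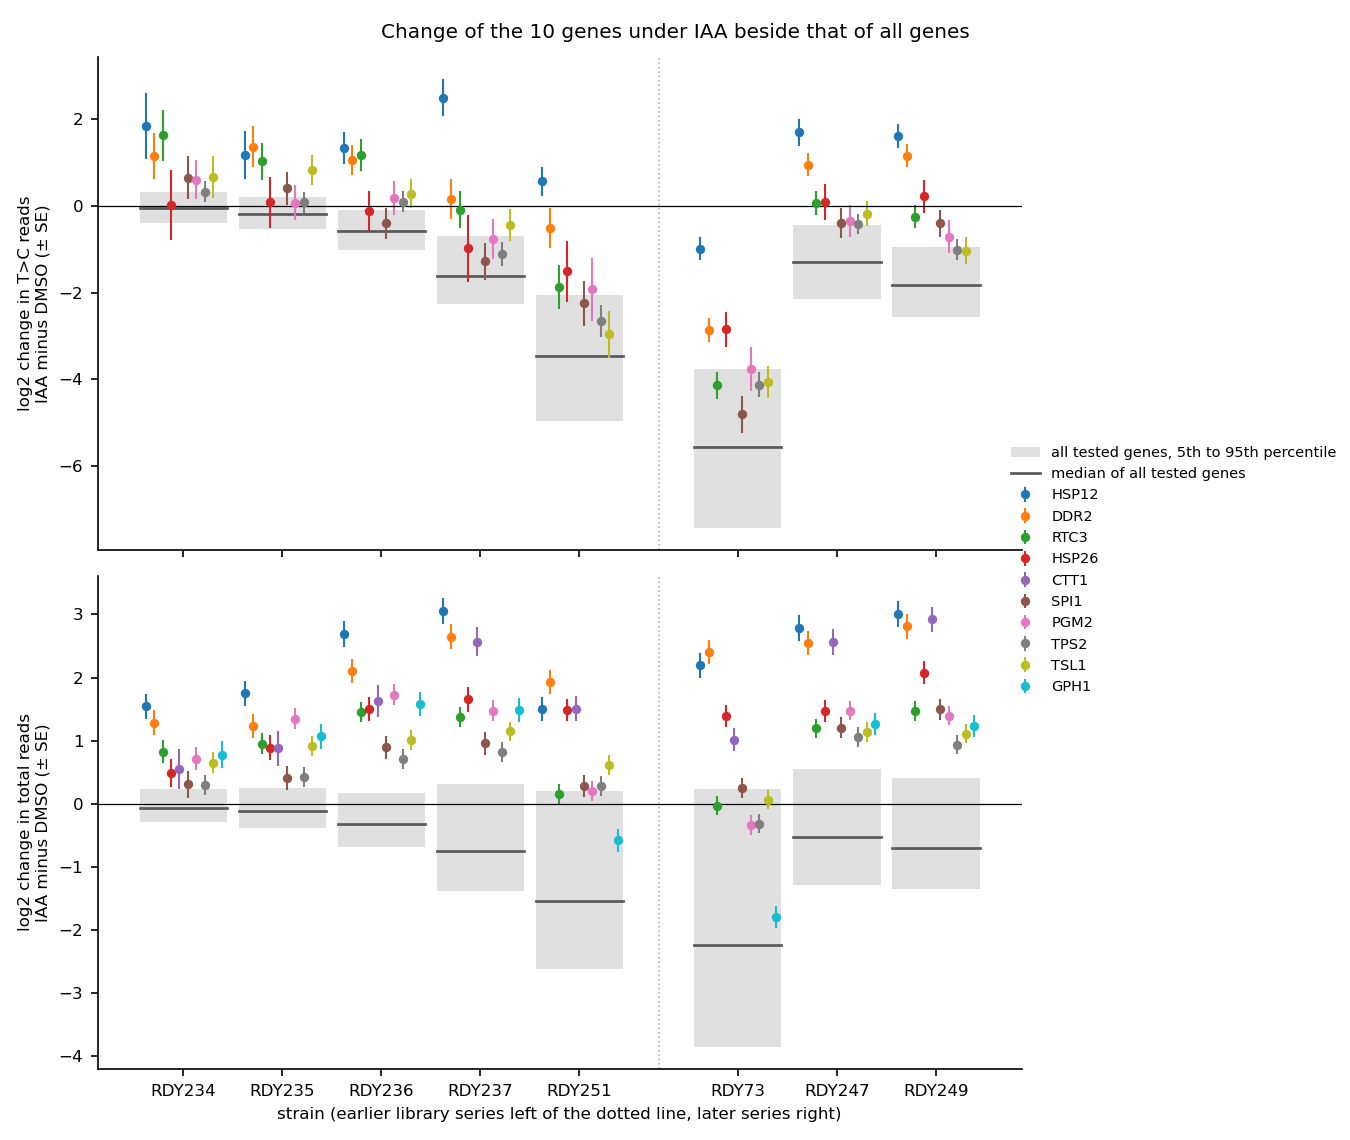
Log2 change under IAA against DMSO in each strain for T>C reads (upper panel, 8 genes) and total reads (lower panel, 10 genes), with bars of ± 1 SE. Grey bands span the 5th to the 95th percentile of all tested genes and dark lines mark their median. On total reads HSP12 lies between 1.50 and 3.05 in all 8 strains, while the median of all genes runs from -0.06 in RDY234 to -2.25 in RDY73.

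In RDY234, where unmodified BDF1 remained, the median of all genes changed by -0.04 on T>C counts and -0.06 on total reads. The normalized total reads of HSP12 were 521, 508 and 401 under DMSO and 1541, 1202 and 1419 under IAA, a log2 change of 1.54 (SE 0.20). For DDR2 they were 268, 237 and 177 under DMSO and 629, 514 and 515 under IAA (log2 1.29, SE 0.20). Both genes were thus higher in every IAA library than in every DMSO library. These were the genes of the 10 called raised on total reads in RDY234, where 2 of 5907 genes (0.0339%) were called raised in all. T>C counts were small, at 3.7, 2.1 and 1.0 normalized T>C reads of HSP12 under DMSO and 8.4, 7.3 and 8.5 under IAA, and no member was called on them, as no gene of the 5118 was (0% in either direction). There, 68 of the 5118 genes had an unadjusted p under 0.05. CTT1, which had too few T>C reads to be tested, had 4 under DMSO and 17 under IAA (ratio 4.35, 1.42 to 17.8). This interval takes in counting error alone and not the spread between libraries, and CTT1 was chosen on these counts, so nothing is read from it.

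HSP12 and DDR2 were called raised on total reads under IAA in all 8 strains, with no overlap between groups in any. In single strains 0.0339% to 2.52% of all genes were called raised, and 2.67% to 5.15% were higher without overlap. The log2 change of HSP12 was 1.75 (SE 0.20) in RDY235, 3.05 (SE 0.21) in RDY237, 3.01 (SE 0.21) in RDY249, 2.78 (SE 0.20) in RDY247, 2.69 (SE 0.20) in RDY236 and 1.50 (SE 0.19) in RDY251. For DDR2 these values ran from 1.24 (SE 0.19) in RDY235 to 2.81 (SE 0.19) in RDY249. The order of the strains depended on the scaling, since with TMM over the S. cerevisiae genes the change of HSP12 was 4.45 in RDY73 and 3.06 in RDY251.

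The number of the 10 genes called raised on total reads was 10 in RDY247, 9 in RDY249, 8 in RDY236 and RDY237, and 4 in RDY235 and RDY251. The corresponding share of all genes was 2.18%, 1.61%, 0.372%, 1.35%, 0.119% and 1.85% in that order, and none of the 10 was called lowered in these strains, where 13.7%, 20.1%, 0.83%, 24.5%, 0.0169% and 76.5% of all genes were. With TMM over the S. cerevisiae genes the numbers raised were 10, 10, 9, 10, 6 and 9, and none was lowered. The shares of all genes called under that scaling are not given, so nothing is read from these numbers. Counts called within strains do not compare the changes between strains. On total reads, 0% of 5907 genes were called as changing under IAA otherwise than in RDY234, in RDY235 and in RDY236. Over the scalings tried, the change of HSP12 exceeded that in RDY234 by 0.21 to 0.24 in RDY235 and 1.15 to 1.37 in RDY236. In RDY237 the difference ran from 1.51 to 2.16 and in RDY251 from -0.04 to 1.45. In RDY235, RDY236, RDY237, RDY247 and RDY249 all 10 genes were higher in every IAA library than in every DMSO library, as were 4.08%, 2.67%, 4.35%, 5.15% and 3.59% of all genes. CTT1 had log2 changes of 2.57 (SE 0.23) in RDY237, 2.56 (SE 0.20) in RDY247 and 2.92 (SE 0.20) in RDY249. In RDY249 its normalized total reads were 85, 98 and 136 under DMSO and 1048, 686.9 and 693.2 under IAA, all IAA libraries being far above all DMSO libraries. Together the 10 genes took 0.236% ± 0.00256 (SD, n = 3) of RDY73 library reads under DMSO and 2.57% ± 0.153 under IAA, against 0.0218% ± 0.00177 and 0.0471% ± 0.000923 in RDY234.

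Among the carbohydrate genes, PGM2, a phosphoglucomutase that supplies glucose 1-phosphate, was called raised on total reads in 5 of the 8 strains. In single strains 0.0339% to 2.52% of all genes were called raised. The log2 changes of PGM2 ran from -0.34 in RDY73 to 1.73 in RDY236. TSL1, a subunit of the trehalose synthase complex, was called raised in 4, with values from 0.07 to 1.15. TPS2, the trehalose 6-phosphate phosphatase, was called raised only in RDY247, at 1.06 (SE 0.15), and its values elsewhere were between -0.32 and 0.94. GPH1 was called raised in 5 strains, with a highest value of 1.59 in RDY236, and lowered in RDY73. In RDY251 its normalized total reads were 353, 271 and 310 under DMSO and 218, 171 and 231 under IAA, without overlap (log2 -0.58, SE 0.18). GPH1 was thus the gene of the 10 with the widest range, and its low values were in the strains with the largest fall in the median of all genes.

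RTC3 was called raised on total reads in 4 strains and SPI1 in 2 (0.0339% to 2.52% of all genes were, by strain), with highest log2 changes of 1.47 and 1.50, both in RDY249. HSP26 was called raised in 6 strains, with log2 changes between 0.48 in RDY234 and 2.08 in RDY249. Over all 8 strains, the 10 genes stood above the median of all genes in total reads in every strain, by 0.36 to 4.65 on the log2 scale. They were chosen on these same counts, so this describes the list.

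HSP12 was called raised on T>C counts in 4 strains (0% to 0.117% of all genes were, by strain). In RDY237 its normalized T>C reads were 11.0, 9.2 and 1.2 under DMSO and 37.0, 44.9 and 45.3 under IAA (log2 2.50, SE 0.43). In RDY247 they were 29.70, 48.75 and 44.01 under DMSO and 129.2, 178.3 and 102.3 under IAA (log2 1.70, SE 0.30). In RDY249 they were 66.3, 68.1 and 114.0 under DMSO and 353.0, 216.0 and 198.0 under IAA (log2 1.62, SE 0.28). The groups did not overlap in these 3 strains, in which the median of all genes changed by -1.61, -1.30 and -1.81. In RDY251 its T>C reads were 15.6, 22.8 and 34.4 under DMSO and 22.9, 40.8 and 43.9 under IAA, with overlap (log2 0.57, SE 0.33). In the 4 strains where HSP12 was called raised, the T>C share of its reads was lower under IAA than under DMSO. It was 0.237% against 0.334% in RDY237, 0.372% against 0.771% in RDY247 and 0.359% against 0.945% in RDY249. In RDY236 it was 0.445% against 1.13%, and the share over all genes was lower under IAA in each as well. Whether these rises hold T>C reads from unlabelled molecules of a larger pool was not tested.

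In RDY236, 3 of the 8 genes, HSP12, DDR2 and RTC3, were called raised on T>C counts (0.0977% of genes were, and 5.2% were lowered), yet the groups overlapped for each. HSP12 had 3.1, 40.2 and 6.4 normalized T>C reads under DMSO, the middle value being replicate B, and 34.2, 36.7 and 57.9 under IAA. In replicate B, T>C reads were 15.7% of all reads, the highest share of the 3. Leaving out replicate B left 2 of the 8 called, leaving out replicate A left 0, and leaving out DMSO replicate C or IAA replicate C left 1.

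**Figure D4:**
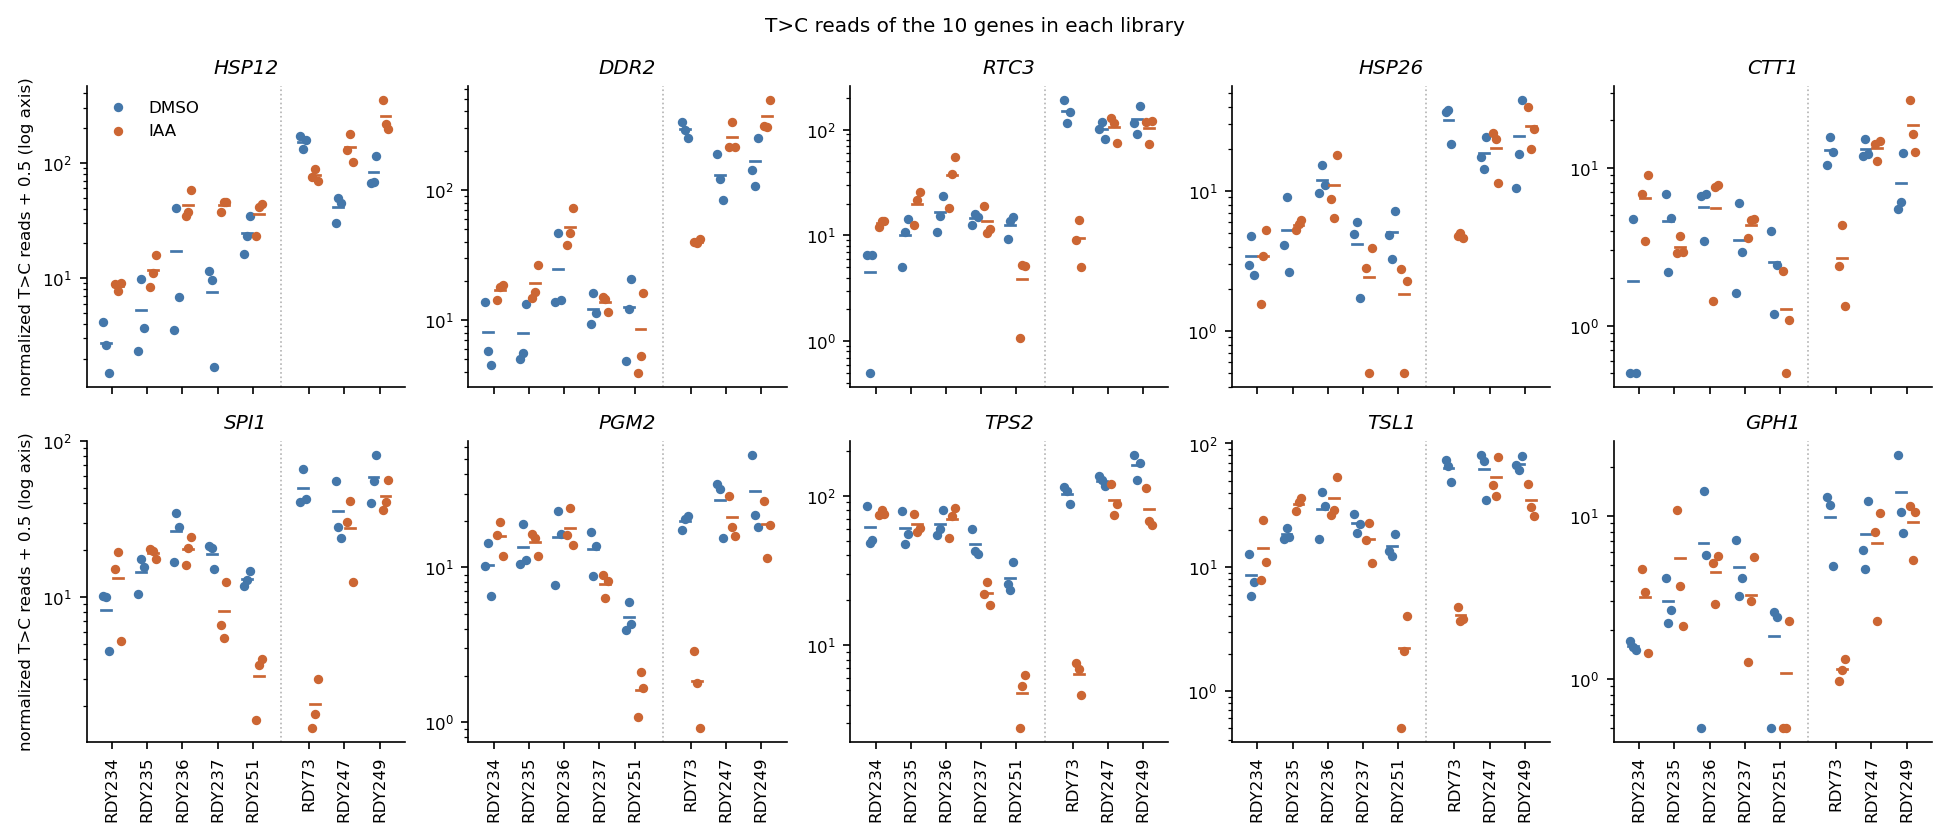
Normalized T>C reads plus 0.5 (log axis) of the 10 genes in each of the 48 libraries, by strain, with DMSO in blue and IAA in orange. Points are libraries and short lines are means of 3. HSP12 is higher in every IAA library than in every DMSO library in RDY234, RDY237, RDY247 and RDY249, and lower in RDY73.

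Other T>C changes under IAA differed between the genes. In RDY249, HSP12 and DDR2 (log2 1.17, SE 0.26) were called raised (0.0782% of genes were) while TPS2 (-1.01, SE 0.23) and TSL1 (-1.03, SE 0.32) were called lowered (94.5%). Leaving out DMSO replicate C, IAA replicate B or IAA replicate C left no gene of the 10 called lowered there, leaving out DMSO replicate A left 1, and leaving out DMSO replicate B or IAA replicate C left 1 called raised. In RDY237, SPI1 (-1.28, SE 0.43) and TPS2 (-1.11, SE 0.28) were called lowered (90.4%) beside HSP12 raised (0.0586%), and this count was 1 without DMSO replicate A or IAA replicate C and 3 without DMSO replicate B. HSP12 alone was called raised and none lowered in RDY247 (0.117% and 76.5%), and leaving out DMSO replicate A, IAA replicate A or IAA replicate C made this 2. In RDY251, 6 of the 8 were called lowered (99.1%), namely RTC3, HSP26, SPI1, PGM2, TPS2 and TSL1, with TSL1 lowest at -2.97 (SE 0.55), and the count was 5 or 7 when single libraries were left out. In RDY235 no gene of the 10 was called on T>C counts (0.0195% were raised and 0% lowered). Each of the 8 genes exceeded the all-gene median in every strain, which describes a list chosen on these same counts. With TMM over the S. cerevisiae genes, the falls of SPI1 and TPS2 in RDY237, of TPS2 and TSL1 in RDY249 and of all 6 in RDY251 turned into rises.

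The T>C share of HSP12 reads was low throughout. In RDY235, RDY236, RDY237, RDY247, RDY249 and RDY251 under IAA, and in RDY237 and RDY251 under DMSO, no gene outside the 10 with at least 10000 reads in the group had a lower T>C share. HSP12 itself had 6279 reads in RDY237 DMSO, below that limit. The share was not adjusted for the number of T bases that the reads of a gene cover. In RDY249 IAA the share was 0.359% (600 of 166916 reads, 0.332% to 0.389%), against 4.05% over all genes pooled and 0.393% for 15S_RRNA, a mitochondrial ribosomal RNA and the next lowest. In RDY251 IAA it was 0.135% (166 of 123080, 0.116% to 0.157%), and DDR2 stood at 0.101% (39 of 38500, 0.0741% to 0.138%). In RDY73 IAA, 7 of the other genes among 313 with that many reads were below HSP12, the lowest being the small nucleolar RNA SNR40 at 0.0459%. Unlabelled libraries (no 4tU) are not analysed here, and how many of the T>C reads of an abundant RNA come from unlabelled molecules was not tested.

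**Figure D5:**
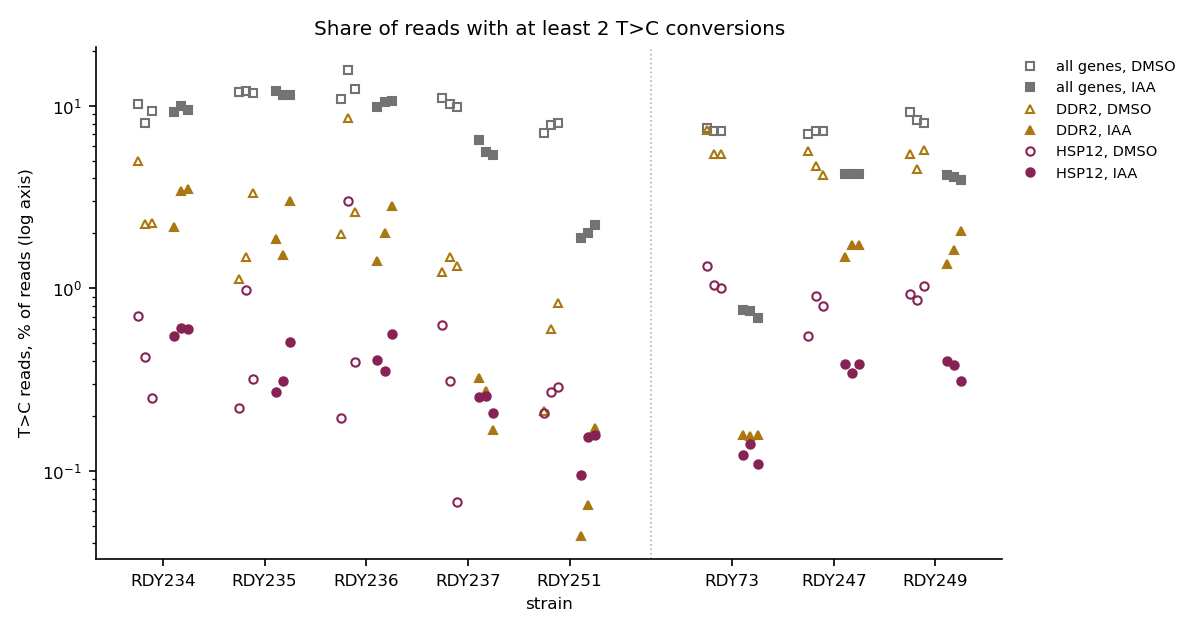
Share of reads with at least 2 T>C conversions (percent, log axis) in each library for all genes (squares), DDR2 (triangles) and HSP12 (circles), with DMSO open and IAA filled. HSP12 lies below all genes in all 48 libraries, at 0.121% against 0.729% for the pooled RDY73 IAA reads and at 0.582% against 9.53% in RDY234 IAA.

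Under DMSO, with the tagged proteins intact, the strains of the earlier series already differed. In RDY251 DMSO the normalized total reads of HSP12 were 7525, 8385 and 11908, against 521, 508 and 401 in RDY234 DMSO, a log2 difference of 4.28 (SE 0.22), or 19.5-fold. For DDR2 they were 2024, 1968 and 2412 against 268, 237 and 177 (log2 3.23, SE 0.20). Of the 10 genes, 9 were called raised in RDY251 (1.03% of genes were), TPS2 at 0.17 (SE 0.16) being the exception, and the median of all genes stood at -0.65. On T>C counts HSP12 had 15.6, 22.8 and 34.4 normalized reads against 3.7, 2.1 and 1.0 (log2 3.39, SE 0.60), and RTC3 was also called raised (0.371%), while PGM2 at -1.15 (SE 0.53) and TPS2 at -1.13 (SE 0.27) were called lowered (42%). Leaving out RDY234 replicate A made these counts 3 raised and 0 lowered, leaving out RDY234 replicate B made them 1 and 1, and leaving out any of the RDY251 libraries left 1 lowered.

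The bromodomain mutants lay between RDY234 and RDY251 in HSP12 total reads under DMSO. HSP12 was higher than in RDY234 by a log2 difference of 0.96 (SE 0.20) in RDY235, 1.66 (SE 0.20) in RDY236 and 2.18 (SE 0.20) in RDY237, with no overlap in any. Of the 10 genes, 0 were called raised in RDY235 (0.0846% of genes were), 4 in RDY236 (0.135%) and 6 in RDY237 (0.44%). In RDY235, 7 of the 10 were higher than in RDY234 without overlap, as were 1.71% of all genes. In T>C counts 6 of 8 were called raised in RDY236 DMSO against RDY234 DMSO (1.86%). Without RDY236 DMSO replicate B this count was 0, and it was 3 without RDY234 DMSO replicate B or C, so these calls depended on that library. None was called in RDY235 or RDY237 on T>C counts (0.0586% and 0.606% of genes were raised).

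Under IAA the same order held for HSP12 total reads against RDY234, at 1.17 (SE 0.20) in RDY235, 2.81 (SE 0.21) in RDY236, 3.69 (SE 0.21) in RDY237 and 4.24 (SE 0.22) in RDY251. These differences used the same RDY234 libraries as their reference. The number of the 10 genes called raised was 1, 9, 9 and 8 (0.186%, 0.677%, 2% and 2.08% of genes were), and leaving out RDY234 IAA replicate B, RDY235 IAA replicate A or RDY235 IAA replicate C made the first count 2. On T>C counts, HSP12 alone of the 8 was called raised in RDY237 (0.43%) and in RDY251 (0.0391%), while 4 were in RDY236 (0.488%, with 1.45% lowered and none of the 8), a count that was 2 without RDY234 IAA replicate A, 3 without RDY234 IAA replicate C and 1 without RDY236 IAA replicate C. PGM2 and TPS2 were called lowered in RDY237 (83.7%), which became 1 gene without RDY234 IAA replicate A or B or RDY237 IAA replicate B and 3 without RDY234 IAA replicate C, and 5 genes were called lowered in RDY251 (99.2%). With TMM over the S. cerevisiae genes the fall of PGM2 in RDY237 and those of all 5 genes in RDY251 turned into rises.

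In the later series the DMSO level of HSP12 was highest in the strain without a further BDF1 copy. Normalized total reads were 5396, 5368 and 5503 in RDY247 and 7105, 7893 and 11072 in RDY249, against 12870, 12572 and 15644 in RDY73, with no overlap. The log2 differences from RDY73 were -1.34 (SE 0.19) and -0.66 (SE 0.19). HSP12 and CTT1 were called lowered in RDY247 (0.119% of genes were) and none in RDY249 (0.0339%). Leaving out RDY73 DMSO replicate B left 1 of these, leaving out RDY247 DMSO replicate A made 3, and leaving out RDY249 DMSO replicate C made 1 in RDY249. On T>C counts HSP12 (-1.88, SE 0.30) and DDR2 (-1.18, SE 0.26) were called lowered in RDY247 (0.117%, with 2.42% raised and none of the 8), HSP12 having 29.70, 48.75 and 44.01 normalized reads against 170.6, 130.4 and 157.0, and 1 of them remained without RDY247 DMSO replicate C. In RDY249 no gene of the 10 was called (0.0195% of genes were lowered and 8.17% raised), and 3 were called lowered without RDY249 DMSO replicate C.

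Under IAA, T>C reads of the 10 genes in RDY247 and RDY249 exceeded those in RDY73 without overlap for every gene, as did those of 98.4% of all genes in each strain. Of the 8 tested, 7 were called raised in RDY247 (99.6%) and 8 in RDY249 (99.7%), and on total reads 3 of the 10 in RDY247 (84%) and 5 in RDY249 (84.9%), or up to 4 and 7 with single libraries left out. The log2 difference was smallest for HSP12, at 0.80 (SE 0.27) in RDY247 and 1.72 (SE 0.26) in RDY249, where the median of all genes stood at 4.38 and 4.33. For total reads HSP12 showed -0.75 (SE 0.19) and 0.16 (SE 0.19), where the median of all genes stood at 1.88 and 1.93. Normalized total reads of HSP12 in RDY247 IAA were 33493, 51703 and 26516 and in RDY249 IAA 88729, 57071 and 63751. GPH1 showed the opposite, with 1013, 980 and 1548 normalized total reads in RDY247 IAA and 2117, 1256 and 1213 in RDY249 IAA against 256, 244 and 162 in RDY73 IAA (log2 2.43, SE 0.18, and 2.79, SE 0.18). With TMM over the S. cerevisiae genes, the T>C differences of DDR2, RTC3, HSP26, PGM2, TPS2 and TSL1 from RDY73 turned negative in both strains, as did that of HSP12, and that of SPI1 in RDY247. On total reads under this scaling none of the 10 was called raised, while 6 were called lowered in RDY247 and 4 in RDY249. The shares of all genes called under it are not given, so nothing is read from these numbers.

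The IAA response itself, taken as the difference of the change under IAA from that in the reference strain, gave T>C calls for 4 of the 8 genes lowered in RDY237 (88.1%), 6 lowered in RDY251 (99%), and 8 raised in both RDY247 (99.5%) and RDY249 (98.7%). In RDY235 and RDY236 no gene of the 8, and 0% of all genes, was called. For HSP12 the difference was 0.65 in RDY237 and -1.28 in RDY251 against RDY234, and 2.69 in RDY247 and 2.61 in RDY249 against RDY73. Over the scalings tried it ran from 0.65 to 2.19 in RDY237 and in RDY251 from -1.28 to 2.07, while the later series gave -1.40 to 2.71 (RDY247) and -1.01 to 2.66 (RDY249), so the sign held in RDY237 alone of these 4 strains. A range over scalings does not measure the spread between libraries. The differences from RDY234 also rest on few reads, since in RDY234 DMSO 0.460% of 1303 HSP12 reads were T>C reads. Nothing is therefore read from the sign in RDY237.

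The wider set of general stress genes was then tested with edgeR's quasi-likelihood test. This set was chosen with earlier results of these data known, so its p-values are no independent test. It held 71 other genes, 13 of trehalose and glycogen turnover, 10 of redox defence, 11 chaperones and hydrophilins, 16 of carbon metabolism and 21 of other roles, of which 48 were tested on T>C counts and 71 on total reads. On total reads under IAA, 0 of the 71 were raised in RDY234, where 14 had an unadjusted p under 0.05, 1 in RDY235, 7 in RDY236, 10 in RDY237, 15 in RDY247, 15 in RDY249, 4 in RDY251 and 5 in RDY73. Over all genes the raised share was 0.0339%, 0.119%, 0.372%, 1.35%, 2.18%, 1.61%, 1.85% and 2.52% in that order. Of the 15 raised in RDY249, 9 were among the 21 of other roles. In RDY73, 21 were lowered (84.8% of all genes), in RDY251 10 (76.5%), and in RDY237 (24.5%), RDY247 (13.7%) and RDY249 (20.1%) 1 each. The median log2 change of these genes was -0.55 in RDY73 and 0.46 in RDY249, against -2.25 and -0.69 over all genes.

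YGP1, a secreted cell wall-related glycoprotein, rose in 5 strains, with the largest change in RDY237 (log2 2.24, SE 0.14, adjusted p = 4.53e-18). CYC7, the second isoform of cytochrome c, rose in 6 strains, by 2.66 in RDY73 (SE 0.17, adjusted p = 1.11e-20) and 2.32 in RDY251 (SE 0.18, adjusted p = 1.98e-16). ALD3, an aldehyde dehydrogenase whose counted interval overlaps YMR168C and may hold reads of that gene, rose in 5, by 2.09 in RDY247 (SE 0.18, adjusted p = 1.94e-13). GAC1, a regulatory subunit that directs a phosphatase to glycogen synthase, fell in RDY251 (log2 -2.53, SE 0.25, adjusted p = 4.28e-13), and TPS3, a regulatory subunit of the trehalose synthase complex, fell in RDY73 (log2 -2.59, SE 0.15, adjusted p = 6.86e-22). Of the 13 trehalose and glycogen genes, 9 fell in RDY73 on total reads and 0 rose, where 84.8% of all genes fell and 2.52% rose. Of the 10 redox genes 0 rose in any of the 8 strains, where 0.0339% to 2.52% of all genes rose, by strain.

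On T>C counts none of the 48 other stress genes rose in any strain under IAA, where 0% to 0.117% of all genes rose, by strain. The numbers lowered were 48 in RDY73, 45 in RDY251, 28 in RDY249, 23 in RDY237, 15 in RDY247 and 0 in RDY234, RDY235 and RDY236, where 4, 7 and 6 had an unadjusted p under 0.05. Of all genes, 99.9% were lowered in RDY73, 99.1% in RDY251, 94.5% in RDY249, 90.4% in RDY237, 76.5% in RDY247, 5.2% in RDY236 and 0% in RDY234 and RDY235. DESeq2 also called 0 of the 48 in these 3 strains. With TMM over the S. cerevisiae genes fewer were called in RDY73, 18 in either direction. SSA4, a stress-induced Hsp70, fell by 2.71 in RDY237 (SE 0.32, adjusted p = 4.31e-12) and by 4.40 in RDY251 (SE 0.39, adjusted p = 2.40e-19) on the log2 scale. Among 17 chaperone genes controlled by Hsf1, the other main stress activator, none rose (0% to 0.117% of all genes did, by strain). All 17 were lowered in RDY73, RDY237, RDY247, RDY249 and RDY251, where 76.5% to 99.9% of all genes were.

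The genes of the activators themselves were not raised. On total reads MSN2 changed by -1.37 (SE 0.15, adjusted p = 4.17e-12) and MSN4 by -2.72 (SE 0.22, adjusted p = 2.18e-16) in RDY73 under IAA. In RDY234, MSN2 stood at 0.21 (SE 0.15) and MSN4 at -0.12 (SE 0.22), each with an adjusted p of 1. In RDY249, MSN2 stood at -0.57 (SE 0.15, adjusted p = 0.000672) and MSN4 at -0.45 (SE 0.22, adjusted p = 0.0522). The 29 regulators of the pathway include kinases and phosphatases, subunits of protein kinase A and the 14-3-3 proteins. Of these, 0 rose and 23 fell in RDY73, where 2.52% of all genes rose and 84.8% fell. In RDY251, 0 rose and 20 fell, where 1.85% of all genes rose and 76.5% fell.

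The members resembled each other across the 16 groups. After subtraction of the median over tested genes in each group, Pearson's r between the T>C profiles of the 8 tested members lay between 0.814 and 0.968 over 28 pairs, with a median of 0.903. The members were chosen on these counts, and the groups share libraries, depth and series, so these values are a description. No r between pairs of other genes is given beside them. The 10 genes outside the list with the profile most like the members' mean over the 16 groups were HOR7 (r = 0.991), STF2 (0.986), QCR9 (0.983), YBR085C-A (0.981), PMP3 (0.977), TSA1 (0.976), HXK1 (0.975), PBI2 (0.975), SUI1 (0.974) and PHM8 (0.973). HOR7, HXK1 and PHM8 are among the 71 other stress genes. Within the earlier series, with 10 groups, r for these genes ran from 0.91 to 0.98, and within the later one, with 6, from 0.953 to 0.994. On total reads HOR7 rose in 4 strains and its T>C share was 4.3% in RDY73 DMSO and 0.18% in RDY73 IAA. The total reads of these 10 genes went in both directions in RDY73, where the median of all genes changed by -2.25. The log2 change was 1.26 for PHM8, 0.95 for YBR085C-A, 0.93 for STF2 and HOR7, 0.61 for PBI2 and 0.40 for TSA1. It was -0.40 for QCR9, -0.42 for PMP3, -0.79 for SUI1 and -0.89 for HXK1.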

How the data were processed

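SLAM-seq libraries of 8 yeast strains under DMSO or IAA, 3 per group, were analysed. Per the submitters' notes reads were trimmed with fastp 0.23.2 and assigned to R64 (S. cerevisiae) and ASM294v2 (S. pombe), and the deposited tables, written by SLAM-DUNK 0.4.3, give total read counts and T>C read counts per gene interval, which ran 250 bases past the gene end for 6460 of 6465 genes. The methods give a shorter labelling time than the labels, which were followed. Counts were scaled by the median of ratios over 4955 S. pombe genes (size factors 0.567 to 2.41), from cells mixed at 1 to 19. Genes with a mean count of at least 10 were tested with edgeR 4.0.16 (R 4.3.3) in 1 quasi-likelihood fit over 48 libraries, with Benjamini-Hochberg adjustment per contrast. DESeq2 1.42.0, other scalings, no filter, a replicate block and left-out libraries were the alternatives. Those on total reads, and the strain comparisons on total reads, were chosen after seeing the data. The members and gene lists were chosen with earlier results of these data known. Named genes were the members, up to 3 called genes of each list with the largest rise and the largest fall per contrast, those called in most strains, and the 10 genes most like the members. Multimapping reads made up 0.166% to 0.505% of the members' reads. The model fit was tested on simulated data.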

Additional observations from a re-analysis of the deposited data

Results flagged for a closer look

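The IAA response of the 71 other general stress genes was compared with that of the reference strain of the series by an interaction term in edgeR's quasi-likelihood test, and genes whose responses differed by at least 2-fold at an adjusted p under 0.05 were counted. Against RDY234, the response of 30 of 48 genes differed in RDY237 on T>C counts and that of 9 of 71 on total reads, where the response of 88.1% and 18.2% of all genes was lower and that of 0.0391% and 0.982% higher. MSC1 had a larger response in RDY237 on total reads (log2 1.83, SE 0.26, adjusted p = 7.52e-07) and GAC1 a lower one (-1.64, SE 0.27, adjusted p = 8.90e-06). In RDY251 these numbers were 45 on T>C counts (99% of all genes lower, 0.0195% higher) and 15 on total reads (74.4% lower, 1.51% higher), with CYC7 at 1.84 (SE 0.32, adjusted p = 1.20e-06) and GAC1 at -2.44 (SE 0.32, adjusted p = 1.92e-09) on total reads.

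Against RDY73, the response of all 48 genes differed on T>C counts in RDY247 (99.5% of all genes higher, 0% lower), and that of 36 on total reads (81.1% higher, 0.931% lower), where ALD2 stood at 3.18 (SE 0.37, adjusted p = 4.41e-11) and GND2 at -1.02 (SE 0.37, adjusted p = 0.0102). In RDY249 the response of 48 differed on T>C counts (98.7% of all genes higher, 0% lower) and that of 35 on total reads (75.5% higher, 1.3% lower), where TPS3 stood at 2.10 (SE 0.21, adjusted p = 7.82e-13) and CYC7 at -1.07 (SE 0.24, adjusted p = 6.84e-05).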

How the results depend on the processing

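T>C reads were few for low members under IAA, T>C reads from unlabelled RNA were not measured, and the directions of many T>C changes rest on the S. pombe scaling. Scaling by TMM over the S. cerevisiae counts moved the median of all genes in RDY73 under IAA from -5.57 to -0.35 (T>C, log2), and this alternative gave every reversal of a called change among the members. By its construction it takes out a change shared by most genes.

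Under that scaling the IAA change in T>C reads in RDY73 became 2.50 for DDR2, 1.19 for RTC3, 2.48 for HSP26, 0.47 for SPI1, 1.49 for PGM2, 1.21 for TPS2, 1.26 for TSL1 and 4.37 for HSP12 (-0.99 before, not called), and that in total reads 0.44 for GPH1. In RDY237 it became 0.29 for SPI1 and 0.47 for TPS2, and in RDY249 0.78 for TPS2 and 0.75 for TSL1. In RDY251 it became 1.47 for RTC3, 1.80 for HSP26, 1.08 for SPI1, 1.33 for PGM2, 0.71 for TPS2 and 0.34 for TSL1. Against RDY234 under IAA, PGM2 stood at 0.46 in RDY237, and in RDY251 RTC3 stood at 2.26, SPI1 at 2.01, PGM2 at 0.44, TPS2 at 0.11 and TSL1 at 1.33. Against RDY73 under IAA, RDY247 showed -3.37 for HSP12 (0.80 before, not called), -1.54 for DDR2, -0.52 for RTC3, -1.98 for HSP26, -0.19 for SPI1, -0.17 for PGM2, -0.12 for TPS2 and -0.24 for TSL1, and RDY249 showed -2.43 for HSP12, -0.84 for DDR2, -0.46 for RTC3, -1.41 for HSP26, -0.34 for PGM2, -0.37 for TPS2 and -0.93 for TSL1.

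The counts of other stress genes called on T>C reads under IAA moved with it from 48 to 18 in RDY73, 0 to 3 in RDY236, 23 to 13 in RDY237, 28 to 13 in RDY249 and 45 to 19 in RDY251, and on total reads from 26 to 57 in RDY73, 1 to 2 in RDY235, 7 to 12 in RDY236, 11 to 29 in RDY237, 16 to 35 in RDY247, 16 to 42 in RDY249 and 14 to 53 in RDY251. Between strains under IAA they moved from 1 to 2 in RDY235, 23 to 15 in RDY237, 47 to 23 in RDY251, 48 to 8 in RDY247 and 48 to 6 in RDY249. Under DMSO they moved from 5 to 3 in RDY236, 1 to 2 in RDY237, 1 to 2 in RDY247 and 2 to 0 in RDY249. The counts of differing responses moved from 30 to 4 in RDY237, 45 to 11 in RDY251, 48 to 5 in RDY247 and 48 to 4 in RDY249. The shares of all genes called under this scaling are not given here.

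DESeq2 called 1 rather than 0 in RDY235 against RDY234 under DMSO, as did a fit of the same series alone, which also called 2 rather than 1 in RDY237. Without the filter 35 rather than 23 were called in RDY237 and 24 rather than 15 in RDY247 under IAA, and under DMSO 16 rather than 9 in RDY251 and 4 rather than 2 in RDY249. Scaling by S. pombe T>C reads gave 0 rather than 2 in RDY249 under DMSO. The cause of these moves was not tested. Leaving out 1 library gave 7 to 11 in RDY236 and 1 to 2 in RDY235 on total reads under IAA, 0 to 1 in RDY236 on T>C reads, 0 to 1 for its response against RDY234, and under DMSO 3 to 12 in RDY236, 1 to 2 in RDY237, 0 to 1 in RDY247 and 0 to 6 in RDY249.

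Same-lettered DMSO and IAA libraries of a strain shared little deviation from their group means, with correlations of -0.0698 to 0.123 over 24 pairs. The letters were therefore not used as pairs in the main fit, although this does not show that the samples were handled apart. With the letter as a replicate block, 48 other stress genes were called on T>C reads in RDY73 under IAA, as without it, and no other count moved by over 1.5 times.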
